A study of Mus musculus with 12 samples.

Results

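The cytosolic ribosomal proteins are the protein components of the ribosomes that translate nuclear mRNAs. Their genes were taken as every row of the deposited table whose symbol is Rpl, Rps or Rplp followed by a number and at most 1 of the letters a, x or y, which leaves out names with a pseudogene suffix. This gave 75 genes of 45796, namely 43 of the large subunit, 29 of the small subunit and 3 of the P stalk. The RNA came from gamma delta T cells positive for Vg4 and Vd4 that were isolated from the skin-draining lymph nodes of C57BL/6 mice, in 4 groups of 3 libraries. The groups were NF-kB1-deficient mice given imiquimod cream, wild-type mice given imiquimod cream, NF-kB1-deficient mice given sham cream and wild-type mice given sham cream. Imiquimod is an agonist of the receptor TLR7 that causes a psoriasis-like inflammation of mouse skin. NF-kB1 is the p105 precursor of the p50 subunit of NF-kB. The form of the NF-kB1 deficiency, the cells that carry it, the age of the mice, the length of treatment, and whether the libraries of a group came from separate animals are details that the sources used here do not give. The p-values below therefore measure the spread between these libraries, which may be technical.

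A cytosolic ribosome holds 1 copy of most of its proteins, and each subunit is put together in the nucleolus from ribosomal RNA and proteins made in the cytosol. The mRNAs of these proteins are among the most abundant of a growing cell. They begin with a C followed by a run of pyrimidines, the 5′ terminal oligopyrimidine (TOP) motif, through which the kinase complex mTORC1 and the RNA-binding protein LARP1 control their translation. Lymphocytes raise ribosome production when they are activated and start to divide, and the proteins are then needed in matched amounts.

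The TOP run is the sequence feature these mRNAs share, so the start sites of the members that the results turn on are shown first, with 10 bases before the annotated start and 20 after it. The sequences are from RefSeq on GRCm38.p6 and run 5′ to 3′ on the strand of the gene. Capitals mark a run that opens with C and goes on with at least 4 further C or T bases, nearest to the annotated start. In the first 5 genes the annotated start is a C within the run that is followed by at least 4 further pyrimidines. In the next 5 the run covers the start without a C there (Rps9) or lies close by, and in the last 3 none opens within 5 bases of the start.
Rps10 (chr17:27635225-27635254, minus strand): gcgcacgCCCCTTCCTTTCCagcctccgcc
Rps27 (chr3:90213629-90213658, minus strand): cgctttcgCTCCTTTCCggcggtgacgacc
Rps21 (chr2:180257369-180257398, plus strand): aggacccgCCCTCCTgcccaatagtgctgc
Rplp2 (chr7:141447641-141447670, plus strand): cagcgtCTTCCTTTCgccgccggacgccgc
Rpl14 (chr9:120571507-120571536, plus strand): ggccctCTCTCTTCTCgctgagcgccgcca
Rpl13a (chr7:45128726-45128755, minus strand): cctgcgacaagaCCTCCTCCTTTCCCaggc
Rps26 (chr10:128626487-128626516, minus strand): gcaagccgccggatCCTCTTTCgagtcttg
Rps9 (chr7:3704031-3704060, plus strand): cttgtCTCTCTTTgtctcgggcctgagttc
Rps2 (chr17:24720053-24720082, plus strand): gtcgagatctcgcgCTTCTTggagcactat
Rpl12 (chr2:32961702-32961731, plus strand): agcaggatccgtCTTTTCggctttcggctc
Rps13 (chr7:116334171-116334200, minus strand): caaacgtcggtgagtggcgtcacttcctgt
Rpl4 (chr9:64173377-64173406, plus strand): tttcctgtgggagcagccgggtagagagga
Rpl22 (chr4:152324426-152324455, plus strand): cttctggaatgttccagctcccactgacag

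The table of starts held 55 of the 75 members. Searching the strand of the gene only, a C at the annotated start followed by at least 4 C or T bases was present in 13 of these 55 (23.6%), against 454 of 17436 other protein-coding genes (2.60%). A run that opened within 5 bases on either side of the annotated start was present in 27 of 55 members (49.1%), against 3740 of 17436 other protein-coding genes (21.4%). A match describes these letters only, and an annotated start can lie some bases away from the one used in these cells. All 75 members were matched to RefSeq by gene ID and lie on 19 chromosomes, with 14 on chromosome 7, 7 on chromosome 11 and 4 on chromosome X.

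The authors deposited normalized read counts on a log2 scale, which were taken back to the linear scale and are called normalized values. The libraries were shallow, with an estimated 20507 to 69454 reads on genes each, of which 1523 to 4681 fell on the members. Genes that every cell uses are also listed at 0 in some libraries, so a 0 is given only as listed. Nfkb1 stood at 5.41, 6.64 and 5.84 in NF-kB1-deficient imiquimod libraries, 7.34, 21.01 and 0 in wild-type imiquimod libraries, 8.82, 1.09 and 2.52 in NF-kB1-deficient sham libraries and 6.71, 4.38 and 1.24 in wild-type sham libraries, and a 3′ read outside a deleted part would not check the genotype. The T cell receptor delta row Tcrd was above 0 in all 12 libraries. Trdc, Tcrg-V4, Tcrg-V6, Tcrg-C1, Tcrg-C4 and Il17a were listed at 0 in all of them. Tcrd stood at 62.8, 53.5 and 58.9 in NF-kB1-deficient imiquimod libraries and 14.1, 30.5 and 19.8 in wild-type imiquimod libraries. It stood at 72.8, 66.1 and 40.3 in NF-kB1-deficient sham libraries and 65.8, 68.7 and 76.8 in wild-type sham libraries. Each wild-type imiquimod library thus lay below every library of the other groups in Tcrd. Tcrg stood at 11.5, 45.6 and 16.2 in wild-type imiquimod libraries, against 34.8 to 64.4 in the libraries of the other groups. The 16 gamma delta T cell markers summed to 171, 143 and 161 in NF-kB1-deficient imiquimod libraries, 43.2, 116 and 92.4 in wild-type imiquimod libraries, 199.6, 137 and 104 in NF-kB1-deficient sham libraries and 125, 182 and 169.7 in wild-type sham libraries. This list also holds Cd3d, Cd3e, Cd3g and Cd247, which are not limited to gamma delta T cells. Marker sums of other cells ranged over the 12 libraries from 60.6 to 110.1 for alpha beta T cells (57.4 to 103 of it from Tcrb, with Tcra above 0 in 11 libraries at up to 14.2, Cd8b1 in 8 at up to 17.3, Cd8a in 3 at up to 2.59, and Trac, Trbc1, Trbc2 and Cd4 at 0), 0 to 16.2 for plasma cells, 0 to 4.72 for macrophages and dendritic cells, 0 to 13.0 for keratinocytes and 0 to 8.81 for stroma, and were 0 for B cells. The part of these markers in the results below was not tested. In such bulk libraries, fewer cells of a type and less RNA per cell cannot be told apart.

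The ribosomal proteins were among the strongest signals in these cells. They made up 24 of the 100 genes with the highest mean over the 12 libraries, and 56 of the 75 were above 0 in every library. QuantSeq counts 1 fragment near the 3′ end of each transcript, so levels of different genes are set side by side here on the normalized scale with no correction for length. The mean over 12 libraries was at least 50 for 13 members, 20 to 50 for 23, 10 to 20 for 17, 5 to 10 for 10, 1 to 5 for 6 and below 1 for 4. Rpl19 and Rpl36 were listed at 0 in all libraries. The median of the members' mean levels was 16.2 for the large subunit, 25.4 for the small subunit and 46.4 for the P stalk, the flexible arm of the large subunit that recruits the elongation factors.

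**Figure D1:**
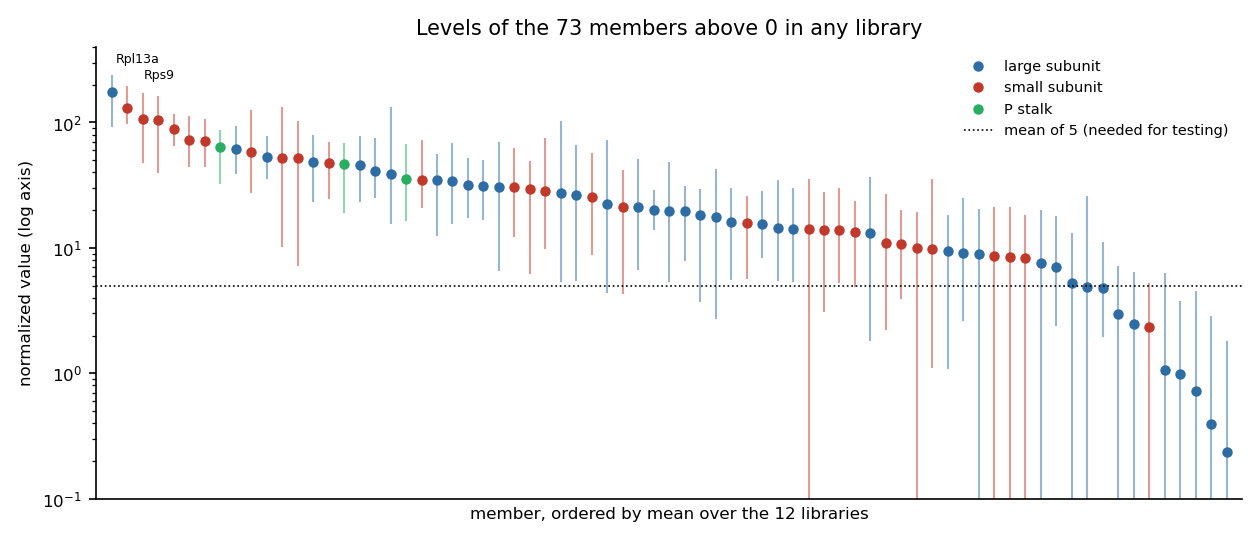
Mean normalized value of each member over the 12 libraries on a log axis, coloured by large subunit, small subunit and P stalk, with lines from the lowest to the highest library. The labelled Rpl13a and Rps9 are the highest of their subunits, and lines that reach the bottom of the axis belong to members listed at or near 0 in at least 1 library.

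Rpl13a, a large-subunit protein that in human myeloid cells also joins a translation-silencing complex, had the highest level. Its normalized values were 208, 191 and 203 in NF-kB1-deficient imiquimod libraries, 158, 93.5 and 233 in wild-type imiquimod libraries, 176, 154 and 197 in NF-kB1-deficient sham libraries and 134, 179 and 168 in wild-type sham libraries. The wild-type imiquimod libraries held both its lowest and its highest value, and all 4 groups overlapped except that the NF-kB1-deficient imiquimod libraries all lay above the wild-type sham libraries. Rps9, a small-subunit protein, stood at 127, 126 and 141 in NF-kB1-deficient imiquimod libraries, 155, 125 and 193 in wild-type imiquimod libraries, 119, 103 and 126 in NF-kB1-deficient sham libraries and 122, 98.5 and 136 in wild-type sham libraries. Rps21, also of the small subunit, stood at 134, 113 and 109.9 in NF-kB1-deficient imiquimod libraries, 168, 89.97 and 111 in wild-type imiquimod libraries, 111, 48.7 and 94.8 in NF-kB1-deficient sham libraries and 94.0, 128 and 85.4 in wild-type sham libraries. Its single low value was in NF-kB1-deficient sham replicate 2. Rpl4, which lines part of the exit tunnel for the growing protein, stood at 57.6, 78.6 and 91.5 in NF-kB1-deficient imiquimod libraries, 61.8, 44.7 and 89.1 in wild-type imiquimod libraries, 39.7, 57.4 and 61.7 in NF-kB1-deficient sham libraries and 45.8, 52.2 and 58.4 in wild-type sham libraries. The 3 P stalk proteins lay between 16.6 (Rplp0, in NF-kB1-deficient sham replicate 2) and 86.3 (Rplp2, in wild-type imiquimod replicate 3).

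The members together held 6.98%, 6.78% and 6.99% of the summed normalized values in NF-kB1-deficient imiquimod libraries (6.92 ± 0.119%, SD, n = 3). They held 7.41%, 5.37% and 7.64% in wild-type imiquimod libraries (6.80 ± 1.25%), 6.28%, 5.23% and 5.64% in NF-kB1-deficient sham libraries (5.72 ± 0.528%), and 5.67%, 5.58% and 5.99% in wild-type sham libraries (5.75 ± 0.215%). Of the 6 imiquimod libraries, 5 lay above all 6 sham libraries. The exception was wild-type imiquimod replicate 2, which was lower than 5 of the 6 sham libraries, and without it the wild-type imiquimod mean was 7.52%. No test was made on this sum over the members.

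**Figure D2:**
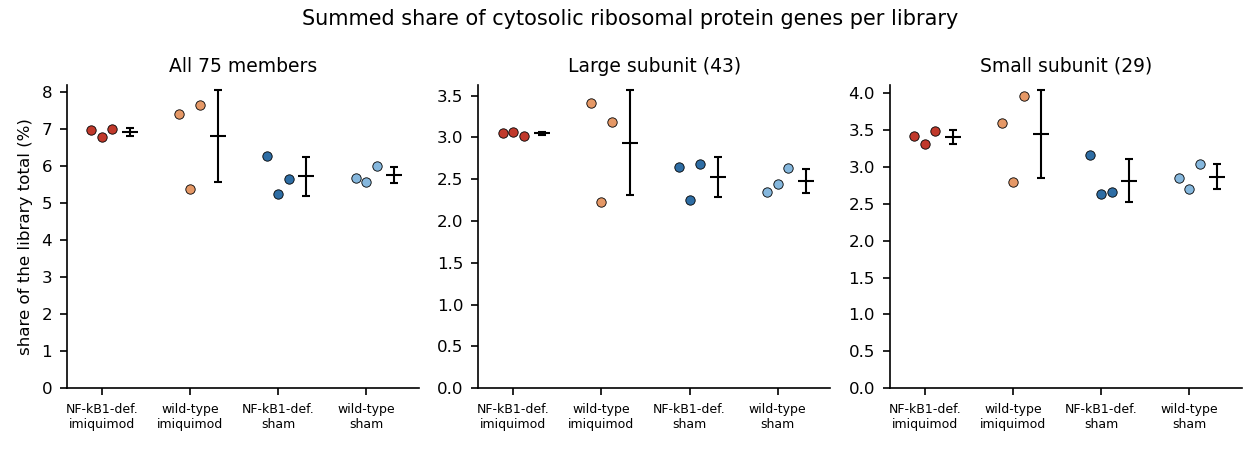
Share of the summed normalized values held by the members in each library, in percent, with the group mean and SD (n = 3). The NF-kB1-deficient imiquimod libraries lie between 6.78% and 6.99%, while wild-type imiquimod replicate 2 stands at 5.37%, apart from the other libraries of its group.

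Both subunits followed this pattern. The large-subunit members held 3.05 ± 0.0220% in NF-kB1-deficient imiquimod libraries, 2.94 ± 0.627% in wild-type imiquimod libraries, 2.52 ± 0.240% in NF-kB1-deficient sham libraries and 2.47 ± 0.145% in wild-type sham libraries. The small-subunit members held 3.40 ± 0.0939% in NF-kB1-deficient imiquimod libraries, 3.45 ± 0.592% in wild-type imiquimod libraries, 2.81 ± 0.295% in NF-kB1-deficient sham libraries and 2.86 ± 0.169% in wild-type sham libraries. The P stalk differed by less than its spread between libraries, at 0.465 ± 0.0484% in NF-kB1-deficient imiquimod libraries, 0.420 ± 0.0784% in wild-type imiquimod libraries, 0.378 ± 0.0907% in NF-kB1-deficient sham libraries and 0.410 ± 0.0846% in wild-type sham libraries. The 10 members of highest level held 3.06 ± 0.0444% with imiquimod and 2.46 ± 0.173% with sham cream in NF-kB1-deficient cells. In wild-type cells they held 2.62 ± 0.670% with imiquimod and 2.59 ± 0.131% with sham cream, where imiquimod replicates 1 and 3 (2.74% and 3.21%) lay above all 3 sham libraries and replicate 2 (1.89%) below them. The other members held 3.86 ± 0.148% with imiquimod and 3.25 ± 0.361% with sham cream in NF-kB1-deficient cells, and in wild-type cells 4.19 ± 0.631% with imiquimod and 3.16 ± 0.179% with sham cream. The 10 other genes of highest level lay the opposite way in wild-type cells, with 8.14 ± 0.476% under imiquimod and 10.8 ± 0.861% under sham cream. In NF-kB1-deficient cells they held 10.2 ± 1.04% under imiquimod and 10.8 ± 0.0825% under sham cream.

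Differences between groups were tested with limma on log2(normalized value + 1), with all 12 libraries in 1 fit and p-values adjusted by the Benjamini-Hochberg method over the 1571 genes with a mean of at least 5. On this scale the fold changes of low genes come out too small. The tested members numbered 63, namely 32 of the large subunit, 28 of the small subunit and 3 of the P stalk. The other 12 (11 large, 1 small) had means of 0 to 4.89. Rpl14, with a mean of 5.26, lay just above this limit and Rpl36a, with 4.89, just below it. The members varied less between the libraries of a group than other genes of like level. The median within-group SD of log2(normalized value + 1) was 0.358 for the 13 members with a mean of at least 50, against 0.490 for 34 other genes. It was 0.572 for 23 members against 0.736 for 172 other genes at means of 20 to 50, 0.673 for 17 against 1.21 for 410 at 10 to 20, and 1.19 for 10 against 1.42 for 892 at 5 to 10. Rps9 had the smallest within-group SD, 0.213.

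**Figure D3:**
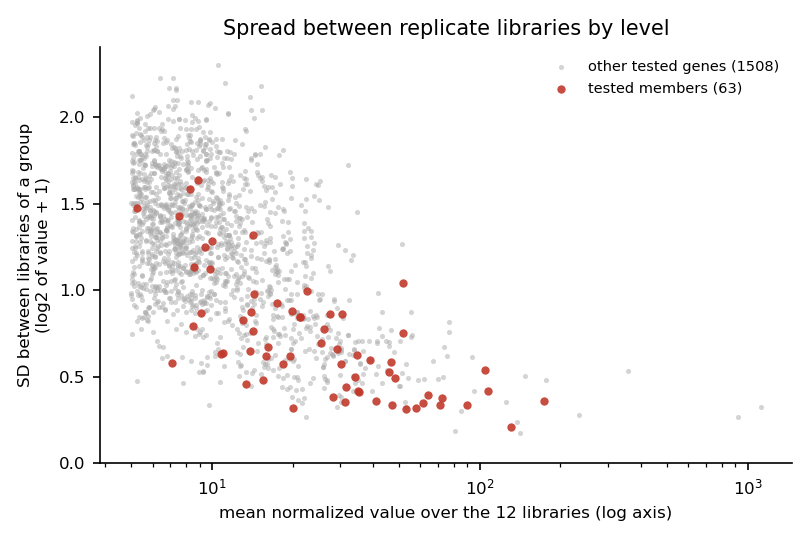
Within-group SD of log2(normalized value + 1) against mean normalized value (log axis) for the tested members and all other tested genes. The members lie low in the cloud of other genes at the same level, with Rps9 lowest among the members at 0.213.

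Among the members chosen for their known roles after their values were seen, Rps3 was the counterexample. Rps3, which in human T cells is also a partner of the NF-kB subunit RelA, stood at 55.5, 34.2 and 85.7 in NF-kB1-deficient imiquimod libraries, 7.34, 40.0 and 101 in wild-type imiquimod libraries, 80.5, 55.8 and 36.3 in NF-kB1-deficient sham libraries and 30.0, 34.0 and 59.4 in wild-type sham libraries. Its values spread widely within each group, with a within-group SD of 1.04 on the log2 scale, and all groups overlapped. Rpl14, the tested member of lowest mean, had a within-group SD of 1.48 and stood at 12.9, 10.5 and 4.54 in NF-kB1-deficient imiquimod libraries, 4.19, 0 and 9.90 in wild-type imiquimod libraries, 10.3, 0 and 3.78 in NF-kB1-deficient sham libraries and 1.12, 5.86 and 0 in wild-type sham libraries. Values at such levels reach 0 in 3 of the 4 groups, which all overlapped.

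In wild-type cells, imiquimod against sham cream, no tested member passed the adjusted threshold of 0.05, while 3.25% of the 1571 genes did. At an unadjusted p below 0.05 there were 5 members, all higher with imiquimod, against 19.9% of all genes. The members nevertheless lay mostly on the higher side, with a positive log2 fold change for 49 of 63, against 48.1% of all tested genes. Their median log2 fold change was 0.40, against −0.07 over all genes. The positive ones were 25 of 32 in the large subunit (median 0.41), 21 of 28 in the small subunit (median 0.39) and 3 of 3 in the P stalk (median 0.27). In 12 members (19.0%) every imiquimod library lay above every sham library, against 10.7% of all genes, and in 1 member (Rps27) every imiquimod library lay below, against 10.8% of all genes. The median interval of a member reached 1.26 log2 units to either side of its estimate, so most single differences of the size of the median were not detectable in this fit. The fit draws the spread of each gene toward that of all tested genes at its level, and the members varied less than those. How much of the width comes from the depth was not tested.

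**Figure D4:**
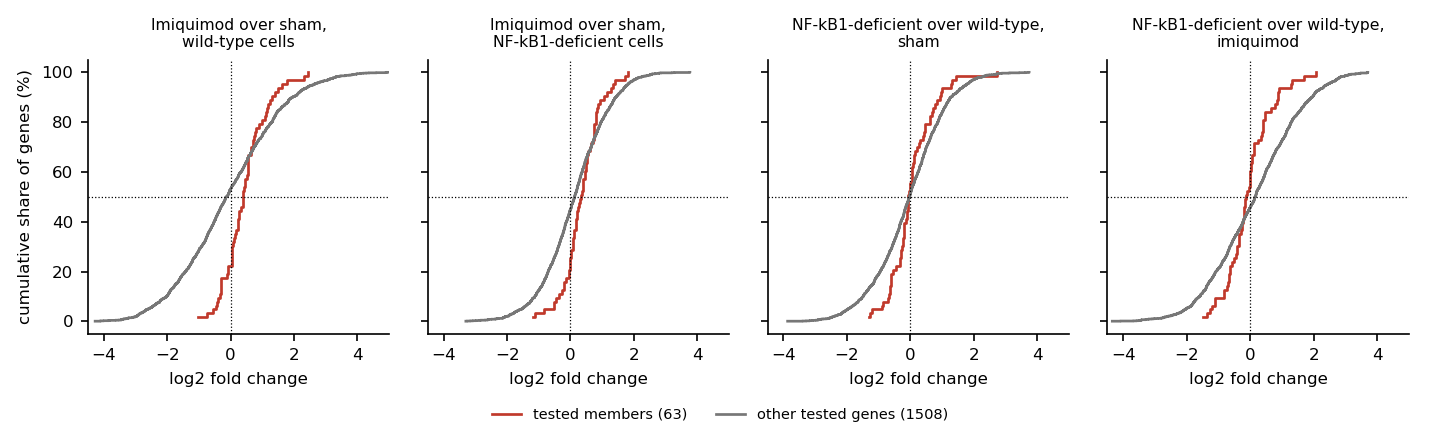
Log2 fold changes of the 63 tested members and of the other tested genes in the treatment and genotype comparisons. In both treatment comparisons the members' median was 0.40 in wild-type and 0.35 in NF-kB1-deficient cells. It lies above the median of all 1571 tested genes, members included (−0.07 and 0.14). In each of the comparisons 0 members passed the adjusted threshold.

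The distance between the members and all genes changed with the set of libraries. Another scaling could hardly change this distance, because such a rescaling shifts all genes nearly alike. With every library brought to the same total, the median of all genes in this comparison moved to −0.25, and 41 of 63 members were positive. The members' median then lay 0.48 above that of all genes, as against 0.47 on the deposited scale. Leaving out wild-type imiquimod replicate 2, the library with the low ribosomal share, gave 52 of 63 positive members and a median of 0.55, and leaving out wild-type imiquimod replicate 3 gave a median of 0.28, against 0.02 over all genes.

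The members named from this comparison were those of lowest p, so their sizes are the upper end of what 63 members gave. Rpl7, a protein of the large subunit, stood at 49.0, 39.6 and 27.1 in NF-kB1-deficient imiquimod libraries, 35.5, 50.4 and 129.7 in wild-type imiquimod libraries, 18.7, 32.4 and 15.7 in NF-kB1-deficient sham libraries and 18.3, 27.9 and 23.6 in wild-type sham libraries. The wild-type imiquimod libraries all lay above the wild-type sham libraries, by a log2 fold change of 1.39 ± 0.52 (SE; 95% interval 0.36 to 2.41; adjusted p = 0.111). Rps26, which lies at the mRNA exit of the small subunit and is mutated in some people with Diamond-Blackfan anaemia, stood at 55.1, 31.8 and 30.2 in NF-kB1-deficient imiquimod libraries, 129, 56.2 and 90.1 in wild-type imiquimod libraries, 46.7, 10.4 and 57.6 in NF-kB1-deficient sham libraries and 39.8, 32.7 and 41.0 in wild-type sham libraries. All 3 wild-type imiquimod libraries lay above the 3 wild-type sham libraries and above the 3 NF-kB1-deficient imiquimod libraries (log2 fold change against wild-type sham 1.19 ± 0.46, adjusted p = 0.130).

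Rpl22, whose loss in mice blocks alpha beta T cells and spares gamma delta T cells, stood at 19.3, 16.4 and 26.6 in NF-kB1-deficient imiquimod libraries, 65.0, 28.4 and 21.8 in wild-type imiquimod libraries, 29.04, 35.6 and 25.8 in NF-kB1-deficient sham libraries and 5.59, 33.0 and 7.87 in wild-type sham libraries. Wild-type sham replicate 2 stood with the imiquimod libraries, so the groups overlapped, and the log2 fold change of imiquimod over sham cream in wild-type cells was 1.49 ± 0.63 (adjusted p = 0.154). Rps10, which is marked with ubiquitin on collided ribosomes in human cells, stood at 16.1, 5.59 and 14.3 in NF-kB1-deficient imiquimod libraries, 25.2, 30.2 and 34.7 in wild-type imiquimod libraries, 17.2, 0 and 7.55 in NF-kB1-deficient sham libraries and 8.94, 9.76 and 1.24 in wild-type sham libraries. Each wild-type imiquimod library exceeded all 9 others (log2 fold change against wild-type sham 2.31 ± 0.98, adjusted p = 0.155). Rps13, an early-joining protein of the small subunit, had a log2 fold change of 2.43 ± 1.09 (SE; adjusted p = 0.181), and its values are given with the interaction below.

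Rps2, at the mRNA entry of the small subunit, stood at 15.7, 18.4 and 20.7 in NF-kB1-deficient imiquimod libraries, 42.97, 47.1 and 73.5 in wild-type imiquimod libraries, 9.92, 20.8 and 17.4 in NF-kB1-deficient sham libraries and 31.9, 19.9 and 21.7 in wild-type sham libraries. The 3 wild-type imiquimod libraries were the 3 highest of the 12. The log2 fold change against wild-type sham was 1.11 ± 0.58 (95% interval −0.04 to 2.27; adjusted p = 0.275). Rps27a, which is made as a fusion with ubiquitin and was chosen for that role, stood at 5.38, 16.8 and 24.7 in NF-kB1-deficient imiquimod libraries, 15.9, 17.8 and 29.5 in wild-type imiquimod libraries, 16.9, 7.66 and 7.55 in NF-kB1-deficient sham libraries and 6.96, 8.30 and 9.09 in wild-type sham libraries. Its wild-type groups did not overlap, and the log2 fold change was 1.23 ± 0.86 (adjusted p = 0.444).

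**Figure D5:**
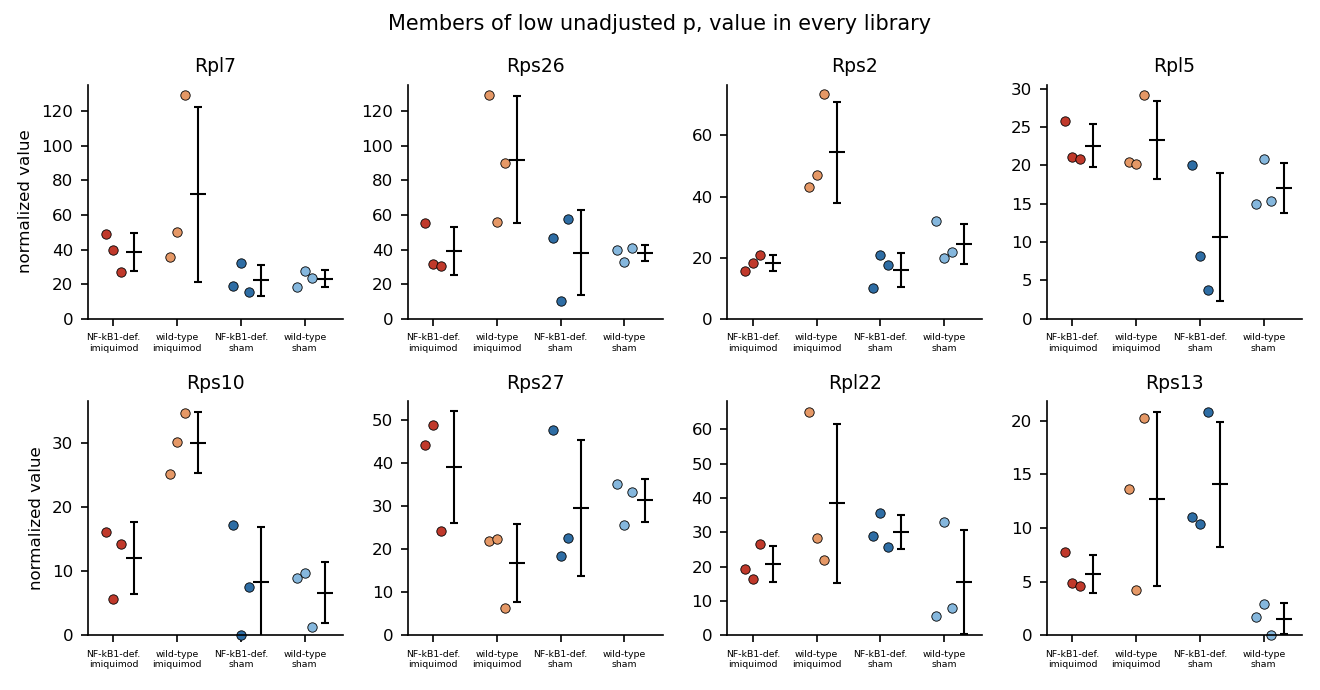
Normalized values of single members in each library, with the mean and SD of each group (n = 3; error bars cut at 0). Rps2 and Rps10 are highest in the wild-type imiquimod libraries, and Rps27 has its lowest mean there.

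Of the P stalk, Rplp0 stood at 37.4, 33.1 and 32.2 in NF-kB1-deficient imiquimod libraries, 43.8, 40.8 and 66.4 in wild-type imiquimod libraries, 26.2, 16.6 and 22.2 in NF-kB1-deficient sham libraries and 43.9, 43.2 and 19.3 in wild-type sham libraries. The NF-kB1-deficient imiquimod libraries all lay above the NF-kB1-deficient sham libraries and below the wild-type imiquimod libraries. In wild-type cells the groups overlapped (log2 fold change of imiquimod over sham cream 0.55 ± 0.51, adjusted p = 0.582). Rplp1 and Rplp2, which pair with each other on the base formed by Rplp0, had log2 fold changes of 0.27 ± 0.46 (adjusted p = 0.787) and 0.03 ± 0.39 (adjusted p = 0.975) in that comparison.

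In NF-kB1-deficient cells, imiquimod against sham cream, the members also lay mostly on the higher side. None of the 63 passed the adjusted threshold, as was true of 0% of all genes, and 1 member was below an unadjusted p of 0.05, against 3.37% of all genes. The fold change was positive in 47 of 63 members, against 56% of all genes, with a median of 0.35 against 0.14 over all genes. The positive ones were 25 of 32 in the large subunit (median 0.42), 19 of 28 in the small subunit (median 0.21) and 3 of 3 in the P stalk (median 0.38). Every imiquimod library lay above every sham library in 8 members (12.7%), against 6.11% of all genes, and below in 3 members (Rpl10, Rps13 and Rps28), against 5.6% of all genes. Leaving out NF-kB1-deficient sham replicate 2, which has a low ribosomal share (5.23%), gave 43 positive members and a median of 0.20.

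The members named for their low p in this comparison all had an adjusted p of 0.996. Rpl5, which carries 5S ribosomal RNA into the large subunit, stood at 25.8, 21.1 and 20.8 in NF-kB1-deficient imiquimod libraries, 20.4, 20.2 and 29.2 in wild-type imiquimod libraries, 19.99, 8.18 and 3.78 in NF-kB1-deficient sham libraries and 14.9, 20.8 and 15.3 in wild-type sham libraries. Its difference rests on low values in NF-kB1-deficient sham replicates 2 and 3 (log2 fold change 1.27 ± 0.72).

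Rpl12, at the base of the P stalk, stood at 19.1, 16.8 and 25.5 in NF-kB1-deficient imiquimod libraries, 42.0, 5.79 and 32.8 in wild-type imiquimod libraries, 12.6, 2.74 and 9.23 in NF-kB1-deficient sham libraries and 9.37, 21.4 and 13.0 in wild-type sham libraries. The NF-kB1-deficient groups did not overlap (log2 fold change 1.40 ± 0.80), and wild-type imiquimod replicate 2 was far below the other libraries of its group. Rps21, whose values are given above, had a log2 fold change of 0.56 ± 0.32 with overlapping groups. Rps6, the substrate of the S6 kinases downstream of mTORC1 and chosen for that role, stood at 13.5, 12.9 and 17.8 in NF-kB1-deficient imiquimod libraries, 16.8, 1.05 and 1.98 in wild-type imiquimod libraries, 11.03, 0 and 6.29 in NF-kB1-deficient sham libraries and 8.94, 8.79 and 0 in wild-type sham libraries. Its NF-kB1-deficient groups did not overlap, and its wild-type imiquimod libraries ranged from near 0 to a value like those of the NF-kB1-deficient imiquimod libraries.

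Under sham cream, NF-kB1-deficient against wild-type cells, the members lay evenly about 0. The fold change was positive in 29 of 63, against 48.6% of all genes, and the median was −0.08 against −0.02 over all genes. Without NF-kB1-deficient sham replicate 2 the median was 0.11. No member passed the adjusted threshold, as was true of 0% of all genes, and at an unadjusted p below 0.05 there were 2 higher and 1 lower, against 6.11% of all genes. Every NF-kB1-deficient library lay above every wild-type library in Rps13, Rpl23a and Rps7 (4.71% of all genes) and below in Rpl7a (4.65% of all genes). Rpl34, a large-subunit protein and the member of lowest p on the lower side, stood at 18.7, 28.8 and 6.67 in NF-kB1-deficient sham libraries and 57.3, 47.0 and 22.2 in wild-type sham libraries. These groups overlapped, and the log2 fold change was −1.28 ± 0.59 (adjusted p = 0.809). Rpl32, also of the large subunit, stood at 9.92, 5.47 and 23.1 in NF-kB1-deficient sham libraries and 19.2, 26.4 and 36.6 in wild-type sham libraries, also with overlap (log2 fold change −1.20 ± 0.64, adjusted p = 0.880). The log2 fold change of Rpl22 in this comparison was 1.296 ± 0.63 (adjusted p = 0.809), and without wild-type sham replicate 2, which is high for Rpl22, it was 2.01.

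Under imiquimod, NF-kB1-deficient against wild-type cells, the members lay slightly on the lower side. No member passed the adjusted threshold, against 1.78% of all genes, and at an unadjusted p below 0.05 there were 2 higher and 3 lower, against 14.3% of all genes. The fold change was positive in 26 of 63, against 53.7% of all genes, and the median was −0.14 against 0.13 over all genes. With every library brought to the same total, 37 of 63 were positive and the median was 0.07, while that of all genes was 0.34, so the sign of the members' median depends on the scaling. Its place below all genes could hardly change, because such a rescaling shifts all genes nearly alike. Without NF-kB1-deficient imiquimod replicate 2 the median was −0.01, and without wild-type imiquimod replicate 2 it was −0.25. In 2 members (Rps27 and Rpl38, 3.17%) the NF-kB1-deficient libraries all lay above the wild-type libraries, against 10.8% of all genes. In 7 members (11.1%), among them Rps26, Rps2, Rps10 and Rplp0, they all lay below, against 10.3% of all genes.

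The share of members in this direction was near that of all genes. The log2 fold change of NF-kB1-deficient over wild-type cells under imiquimod was −1.19 ± 0.46 for Rps26 (adjusted p = 0.193) and −1.49 ± 0.58 for Rps2 (95% interval −2.65 to −0.34; adjusted p = 0.194). With the test limited to genes with a mean of at least 20, Rps2 passed the threshold (adjusted p = 0.0401). That fit adjusted over fewer genes, and it also gave Rps2 a smaller SE (0.49 against 0.58). Rps26, Rps2 and Rps10 each had their highest mean in the wild-type imiquimod libraries. The next mean was that of NF-kB1-deficient imiquimod libraries for Rps26 and Rps10 and that of wild-type sham libraries for Rps2. These 3 members were picked for their low p in comparisons that share the wild-type imiquimod libraries.

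Rps27, a zinc-finger protein of the small subunit, had its lowest mean in the wild-type imiquimod libraries. It stood at 44.3, 48.8 and 24.3 in NF-kB1-deficient imiquimod libraries, 21.8, 22.4 and 6.27 in wild-type imiquimod libraries, 47.7, 18.4 and 22.7 in NF-kB1-deficient sham libraries and 35.1, 25.7 and 33.4 in wild-type sham libraries. The wild-type imiquimod libraries lay below both the NF-kB1-deficient imiquimod and the wild-type sham libraries. The log2 fold change was 1.29 ± 0.58 for NF-kB1-deficient over wild-type cells under imiquimod (adjusted p = 0.262) and −1.03 ± 0.58 for imiquimod over sham cream in wild-type cells (adjusted p = 0.307). Rpl38, whose mutation gives the tail-short mouse and which was named after its values were seen, stood at 35.8, 16.7 and 21.4 in NF-kB1-deficient imiquimod libraries, 12.8, 1.86 and 3.96 in wild-type imiquimod libraries, 26.2, 8.997 and 8.81 in NF-kB1-deficient sham libraries and 10.9, 4.31 and 4.68 in wild-type sham libraries. Its imiquimod groups did not overlap (log2 fold change 2.07 ± 0.95, adjusted p = 0.276).

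The interaction asks whether the change with imiquimod differed between NF-kB1-deficient and wild-type cells. No member passed the adjusted threshold, against 0.446% of all genes, and at an unadjusted p below 0.05 there were 1 higher and 2 lower, against 10.8% of all genes. The interaction was positive in 28 of 63 members, against 55% of all genes, with a median of −0.11 against 0.24 over all genes. With every library brought to the same total the median was 0.04 for the members and 0.41 for all genes, and the members' median ranged from −0.28 (without wild-type imiquimod replicate 2) to −0.05 when 1 library was left out. The member of lowest p was Rps13. It stood at 7.76, 4.89 and 4.54 in NF-kB1-deficient imiquimod libraries, 13.6, 4.21 and 20.3 in wild-type imiquimod libraries, 11.03, 10.4 and 20.8 in NF-kB1-deficient sham libraries and 1.68, 2.88 and 0 in wild-type sham libraries. Imiquimod libraries were all below sham libraries in NF-kB1-deficient cells and all above them in wild-type cells, at low values. The interaction was −3.56 ± 1.55 log2 units (95% interval −6.61 to −0.50; adjusted p = 0.362). It was −2.02 ± 0.88 for Rpl22 (adjusted p = 0.362).

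The members were also set by features that no comparison used. Of the 11 tested members with a C and at least 4 pyrimidines at the annotated start, 9 were positive for imiquimod over sham cream in wild-type cells (median log2 fold change 0.23), against 24 of 35 without it (median 0.39). In NF-kB1-deficient cells the medians were 0.56 with the run and 0.23 without it, with 9 of 11 and 26 of 35 positive. The order of the medians thus differed between the genotypes. The genes of these proteins also have many processed copies in the genome. In 67 of the 75 members at least 1 stretch of 50 bases within the last 300 bases of the transcript was shared with another annotated gene, and in 65 with a pseudogene. Reads from such stretches could be split by the authors' counting, so their values are uncertain. Below 20 estimated reads, 132 of 294 values of tested members (44.9%) were within 0.01 of a whole number of reads, against 69.5% in the other tested genes. In members with no shared stretch, such values were 0 of 7 for Rpl12, 2 of 10 for Rpl27a and 8 of 8 for Rpl14. In members with a shared stretch, they were 0 of 11 for Rpl9 and 9 of 10 for Rpl29. A link between shared stretches and such values was not tested. The tested members with no shared stretch numbered 7, among them Rpl4, Rpl12 and Rpl14. Their median log2 fold change for imiquimod over sham cream was 0.54 in wild-type cells, against 0.39 for the 56 members that share a stretch, and 0.50 in NF-kB1-deficient cells, against 0.29. The 287 named pseudogenes of ribosomal proteins held 0.04% to 0.14% of the summed values per library.

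The wider protein synthesis machinery was read from lists of other genes. For imiquimod over sham cream in wild-type cells, 3 of 23 tested translation factors and partners and 3 of 10 tested ribosome biogenesis genes were called higher, against 0 of 63 ribosomal proteins and 1.65% of all genes, and none was called lower. These lists, chosen with earlier results of these data known, held 40 and 54 genes before the filter. Rrs1, 1 of the 3 biogenesis genes called, passed the filter through its mean of 27.3 in wild-type imiquimod libraries. Its mean was 6.17 in NF-kB1-deficient imiquimod, 6.87 in NF-kB1-deficient sham and 0.488 in wild-type sham libraries. Of the 3 tested mitochondrial ribosomal proteins and the 3 tested genes of the mTORC1 and S6 kinase axis, 0 were called. In NF-kB1-deficient cells 0 genes of these lists were called, as was true of 0% of all genes. The biogenesis genes together held 0.738 ± 0.153% of the summed values in NF-kB1-deficient imiquimod libraries, 1.56 ± 0.188% in wild-type imiquimod libraries, 0.623 ± 0.124% in NF-kB1-deficient sham libraries and 0.545 ± 0.125% in wild-type sham libraries (SD, n = 3 each). In the same order of groups, the mitochondrial ribosomal proteins, tested or not, held 0.289 ± 0.0480%, 0.576 ± 0.0726%, 0.171 ± 0.0704% and 0.198 ± 0.0282%. The translation factors and partners held 1.81 ± 0.197%, 2.42 ± 0.284%, 1.44 ± 0.162% and 1.47 ± 0.248%. Each of these shares was thus highest in wild-type imiquimod libraries. The ribosomal proteins held 6.92 ± 0.119% in NF-kB1-deficient and 6.80 ± 1.25% in wild-type imiquimod libraries. Wild-type imiquimod replicates 1 and 3 (7.41% and 7.64%) lay above all NF-kB1-deficient imiquimod libraries, and replicate 2 (5.37%) lay below them. No test was made on these sums. The biogenesis gene Ncl, whose product nucleolin works on ribosomal RNA in the nucleolus, stood at 72.4, 53.4 and 61.1 in NF-kB1-deficient imiquimod libraries, 180.4, 100.2 and 212 in wild-type imiquimod libraries, 75.7, 70.1 and 74.2 in NF-kB1-deficient sham libraries and 39.7, 39.3 and 39.1 in wild-type sham libraries. Ncl rose with imiquimod in wild-type cells (log2 fold change 1.96 ± 0.36, adjusted p = 0.000101), and so did Npm1, the gene of the nucleolar chaperone nucleophosmin (2.73 ± 0.52, adjusted p = 0.000143). Npm1 stood at 34.6, 40.2 and 41.2 in NF-kB1-deficient imiquimod libraries, 74.9, 104 and 142 in wild-type imiquimod libraries, 19.1, 17.5 and 20.1 in NF-kB1-deficient sham libraries and 35.8, 16.6 and 4.97 in wild-type sham libraries.

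Alternatives for these genes were added after the data were seen. Both calls held when any 1 library was left out, with adjusted p at most 0.00285 for Ncl and 0.0149 for Npm1. They did not hold with limma's trend and robust options off (0.140 for Ncl, 0.0883 for Npm1), where 18 genes in all were called. The calls of the other 4 genes did not hold. Eif3a (log2 fold change 1.99 ± 0.59, adjusted p = 0.0382) was not called without wild-type imiquimod replicate 1 (0.130), 2 (0.0504) or 3 (0.0741) or wild-type sham replicate 3 (0.382). Serbp1 (1.33 ± 0.39, adjusted p = 0.0358) was not called without wild-type imiquimod replicate 1 (0.0624) or 3 (0.203) or wild-type sham replicate 1 (0.169) or 3 (0.0782). Eef1a1 (1.41 ± 0.39, adjusted p = 0.0224) was not called without wild-type imiquimod replicate 3 (0.199) or wild-type sham replicate 1 (0.0953) or 3 (0.105). Rrs1 (4.27 ± 1.13, adjusted p = 0.0145) was not called without wild-type imiquimod replicate 1 (0.0894) or wild-type sham replicate 1 (0.0512) or 3 (0.0545).

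Under imiquimod, 1 of the 23 translation factors and partners (Serbp1) and 1 of the 10 biogenesis genes (Ncl) were called lower in NF-kB1-deficient than in wild-type cells, against 0.509% of all genes, by log2 fold changes of −1.48 ± 0.39 (adjusted p = 0.0252) and −1.33 ± 0.36 (adjusted p = 0.0290). Neither was called without NF-kB1-deficient imiquimod replicate 2 (0.319 for both) or 3 (0.107 for Serbp1, 0.122 for Ncl) or without wild-type imiquimod replicate 3 (0.182 and 0.129). Ncl was also not called without NF-kB1-deficient imiquimod replicate 1 (0.0744) or wild-type imiquimod replicate 1 (0.133). Both were called in the interaction, at −2.40 ± 0.56 for Serbp1 and −2.21 ± 0.51 for Ncl (adjusted p = 0.0110 for both), where 0.255% of all genes were called negative. There, neither was called without NF-kB1-deficient imiquimod replicate 2 (0.0765 and 0.0569), wild-type imiquimod replicate 3 (0.0776 for both) or NF-kB1-deficient sham replicate 3 (0.147 and 0.0604), and Serbp1 not without wild-type sham replicate 1 (0.0632). With trend and robust options off, 0 of 1571 genes were called in either comparison, and the adjusted p under imiquimod was 0.387 for both genes and in the interaction 0.471 for Serbp1 and 0.447 for Ncl. Over all alternatives the adjusted p reached 0.611 for Serbp1 and 0.752 for Ncl under imiquimod and 0.758 for both in the interaction.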

How the data were processed

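RNA was extracted with Trizol and QuantSeq 3′ FWD libraries were made, per the labels' protocols. The submitters' processing notes name the build mm10. No aligner, counter, annotation or normalization is given in the sources used here. The authors deposited log2 normalized read counts, 1 column per library, matched to the samples by title. The scale was read from the values: linear values were 2 to the deposited power, and a deposited 0 was kept as 0. Reads per library were estimated from the steps between low values, with too few whole reads for a count test. limma 3.58.1 in R 4.3.3 (trend and robust options; data.table package, version 1.17.8) tested log2(value + 1) of the 1571 genes with a mean of at least 5 in all 12 libraries, with 8 residual degrees of freedom, an adjusted p threshold of 0.05 and no covariates, and was tested on simulated data. Members with the lowest p in each comparison, those of highest level, the least and the most variable, and some with known roles were named; some that this rule names are not reported here. The members and lists were chosen with earlier results of these data known. Gene positions, copies and start sequences came from RefSeq and GENCODE on GRCm38. Alternatives changed the pseudocount, filter, scaling, limma options, libraries and the replicate block.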

Additional observations from a re-analysis of the deposited data

Results flagged for a closer look

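Rps13, of the small subunit with a mean of 8.50, had fold changes of opposite sign in the 2 genotypes. The log2 fold change of imiquimod over sham cream was 2.43 ± 1.09 in wild-type cells (adjusted p = 0.181, limma). In NF-kB1-deficient cells it was −1.13 ± 1.09 (adjusted p = 0.996). Every imiquimod library lay above every sham library in wild-type cells (10.7% of all genes) and below every sham library in NF-kB1-deficient cells (5.6% of all genes). The log2 interaction, for which this member was picked by its low p, was −3.56 (adjusted p = 0.362, limma) and did not pass the threshold. The adjusted p ranged from 0.212 to 0.758 over the alternatives.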

How the results depend on the processing

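No value that passed the test changed direction, and with 1 exception 0 members were called in every comparison under every alternative run. The exception was Rps2 for NF-kB1-deficient over wild-type cells under imiquimod, so that 1 member was called with genes of mean at least 20. For imiquimod over sham cream in wild-type cells the members' median was 0.30 with a pseudocount of 10, against 0.01 over all genes. It was 0.24 with equal library totals, 0.25 with equal totals of all other genes and 0.28 to 0.55 with 1 library left out. In NF-kB1-deficient cells it was 0.23 with a pseudocount of 10 and 0.20 to 0.36 with 1 library left out. For NF-kB1-deficient over wild-type cells it ranged from −0.14 to 0.11 under sham cream, where it was positive without NF-kB1-deficient sham replicate 2, and from −0.25 to −0.0112 under imiquimod, with 0.0707 for equal library totals and 0.0724 for equal totals of all other genes. In the interaction it was 0.0424 and 0.0445 under these 2 scalings and −0.28 to −0.0485 with 1 library left out. The share of the members in NF-kB1-deficient imiquimod libraries was 7.07% with the ribosomal genes that the rule leaves out. Taken of a total without the 10 highest other genes, it was 7.70% in NF-kB1-deficient imiquimod, 7.41% in wild-type imiquimod, 6.41% in NF-kB1-deficient sham and 6.45% in wild-type sham libraries. With 1 library left out the group means ranged from 6.88% to 6.98% in NF-kB1-deficient imiquimod, 6.39% to 7.52% in wild-type imiquimod, 5.43% to 5.96% in NF-kB1-deficient sham and 5.63% to 5.83% in wild-type sham libraries. The cause of these moves was not tested. The genes called in the order of the comparisons in the report, 51, 0, 0, 28 and 7, were 11, 0, 0, 3 and 1 without the filter, 38, 0, 0, 33 and 13 at a mean of at least 20 and 18, 0, 0, 0 and 0 with limma's trend and robust options off. With 1 library left out they ranged from 23 (without wild-type sham replicate 3) to 72 in the first, from 0 to 1 in the third, from 4 (without NF-kB1-deficient imiquimod replicate 2) to 42 in the fourth and from 2 (without wild-type imiquimod replicate 3 or NF-kB1-deficient sham replicate 3) to 12 in the fifth, with each highest count of these, other than the third's, without wild-type imiquimod replicate 2. A pseudocount of 0.1 gave 26 for wild-type cells, and fits on 6 libraries gave 28, 1, 0 and 17 for the first 4. With the replicate block 0 members were called, the medians were 0.40, 0.35, −0.08, −0.14 and −0.11, and 55, 0, 0, 32 and 7 genes were called. The deviations of same-numbered libraries from their group means correlated little (r from −0.00983 to 0.0609 over 18 pairs). In libraries this shallow, such values cannot settle whether the replicate numbers pair the libraries.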

Other observations

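Of 13 ribosomal protein genes whose symbols the rule leaves out, 4 were tested and 0 called. Rps3a1, named after its values were seen, stood at 20.5, 22.8 and 33.1 in NF-kB1-deficient imiquimod libraries, 8.11, 10.9 and 15.1 in wild-type imiquimod libraries, 21.05, 23.7 and 20.3 in NF-kB1-deficient sham libraries and 35.8, 21.8 and 18.5 in wild-type sham libraries. The 3 wild-type imiquimod libraries were the lowest of the 12. The log2 fold change was 1.11 ± 0.65 for NF-kB1-deficient over wild-type cells under imiquimod (adjusted p = 0.451, limma) and −1.08 ± 0.65 for imiquimod over sham cream in wild-type cells (adjusted p = 0.359). Rpl18, of the large subunit and too low to test, was listed at 0 in all 6 sham libraries and stood at 1.75, 2.79 and 0 in NF-kB1-deficient imiquimod libraries and 0, 6.14 and 1.98 in wild-type imiquimod libraries.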
